A study of Mus musculus with 8 samples.

Results

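The genes described here modify or carry Notch signalling and are neither receptors nor ligands themselves: the fringe glycosyltransferases Mfng, Lfng and Rfng, the O-fucosyltransferase Pofut1, the endocytic adaptors Numb and Numbl, the Deltex ubiquitin ligases Dtx2, Dtx3 and Dtx4, and Rbpj, the DNA-binding protein that Notch acts through. They were found on the array by matching the accession of each probe to the 10 symbols, which gave 14 probes out of 55681 that are not controls. Mfng, Rfng, Pofut1 and Rbpj had a pair of probes each, and the others had 1. All 14 probes were bright enough to be kept, among 33607 kept probes in all, and the 10 genes stand among 24625 gene names tested.

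White adipose tissue of 4 wild-type (WT) mice was compared with that of 4 Ad/NICD mice, whose series title describes overexpression of N1ICD, the Notch1 intracellular domain. All 8 mice were 5-week-old animals of a mixed strain, 129 × C57BL/6, on regular chow. The sources used here give neither the promoter that drives the transgene, nor the fat depot, nor the sex of the mice. Whole tissue was profiled, so fewer cells of a type and less RNA per cell cannot be told apart in any value below. The labels call the samples of a group biological replicates. The p-values rest on the spread between these samples, in most tests through the differences within same-numbered pairs.

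A Notch receptor is a surface protein that is cut when it meets a ligand on a neighbouring cell, which frees its intracellular domain to enter the nucleus, bind RBPJ and switch on target genes. Pofut1 adds O-fucose to the repeats of the receptor's outer part, and fringe enzymes lengthen that fucose with a further sugar, which changes how strongly the receptor answers Delta-like as against Jagged ligands. Numb proteins steer the receptor into endocytosis and hold signalling back, and some Deltex proteins bind the receptor's inner part and direct its trafficking and ubiquitination. In the Ad/NICD mice the intracellular domain is supplied already free, downstream of the steps that the fringe enzymes and Pofut1 act on.

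The samples were hybridised to 4 arrays with 2 colours, each array carrying the WT and the Ad/NICD sample of the same replicate number. Red over green was read as Ad/NICD over WT, which is how the authors' deposited value table pairs channel and genotype. The samples' dye tags assign the dyes the other way round, and under those tags all signs would turn and the levels of WT and Ad/NICD would be exchanged. No dyes were swapped, so a dye bias of a probe and genotype cannot be told apart. Per channel and array, 58.1% to 68.6% of probe spots exceeded background clearly. The Notch target Heyl rose, with a mean log2 ratio of 2.87 ± 0.17 (limma, adjusted p = 0.0407). Notch1 had 0.36 ± 0.24, with ratios of 1.24, 0.35, -0.012 and -0.14 on the arrays of replicates 1 to 4. For mean log2 ratios, ± is the moderated SE of limma, in which each variance is drawn toward that of all genes or probes fitted. In replicate 4 both samples had low Xist, at log2 signals of 5.87 and 6.12 against 10.15 to 10.45 in the other 6 samples, and high Eif2s3y, a Y-linked gene, at 10.82 and 10.94. Eif2s3y was 5.81 to 6.06 in the other 6 samples. By these levels the pair of replicate 4 is male and the other pairs are female. Sex and the other traits of replicate 4 cannot be told apart. Both samples of replicate 4 also had summed mammary epithelium markers of 451 and 474 signal units, against 10125 to 26618 in the others. Its WT sample had the highest summed skeletal muscle markers, 140223, against 1278 to 10489 in the others.

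Of the 10 genes, 5 had a mean log2 ratio above 0 and 5 below. The median was -0.018, beside -0.0061 over all gene names, and the median size regardless of sign was 0.23, beside 0.10 over all. These sizes were not compared at like brightness, and the background correction can shrink the ratios of dim probes. In brightness the members ran from percentile 33.6 (Numb) to 92.4 (Mfng) of all gene names. Of the 24625 gene names, 15624 have a RefSeq symbol. In the ratio fit (limma on the 4 within-array log2 ratios, Benjamini-Hochberg adjustment over all gene names, threshold 0.05) 0 of the 10 passed, where 0.0528% of all gene names did (0.0284% higher and 0.0244% lower). Among the 14 probes of these genes 0 passed either, where 0.0387% of all kept probes did, and 5 of the 14, of which Mfng has a pair, had an unadjusted p under 0.05, where 15.1% of all kept probes did. Of the 10 genes, 4 had an unadjusted p under 0.05, with Numbl and Dtx3 higher and Mfng and Dtx2 lower, against 15.4% of all gene names (6.28% higher and 9.08% lower). The sign was the same on 4 of 4 arrays for 5 genes, these 4 and Pofut1, against 24.7% of all gene names (11.3% higher and 13.4% lower). The levels of the groups did not overlap for 1 of the 10, Mfng, which was lower, against 9.99% of all gene names (4.32% higher and 5.68% lower). With the 8 channels fitted separately and the array as a random block, Mfng passed as the sole member, where 2.03% of all gene names did (0.869% higher and 1.16% lower). Without a block Mfng again passed alone, where 1.05% did (0.41% higher and 0.642% lower). Values below come from the ratio fit unless another is named, and a level is the log2 signal of 1 channel, loess-normalised and then scaled between arrays. Without replicate 4, the pair that stands apart, the ratio was -0.92 for Mfng, 0.48 for Numbl, -0.54 for Dtx2 and 0.32 for Dtx3, with 0 of these past the threshold. Median-centring in place of loess moved the median of all gene names to -0.34, and there Lfng (-0.20), Dtx3 (-0.16), Dtx4 (-0.48) and Rbpj (-0.51) turned in sign, while Mfng had -1.20, Dtx2 -0.92 and Numbl 0.037. Relative to that median Mfng had -0.86, Dtx2 -0.58, Numbl 0.38, Lfng 0.14 and Dtx3 0.18, while Dtx4 had -0.14 and Rbpj -0.17, still opposite in sign to the ratio fit. Numb had 0.040 relative to that median, also opposite to its -0.059 in the ratio fit.

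**Figure D1:**
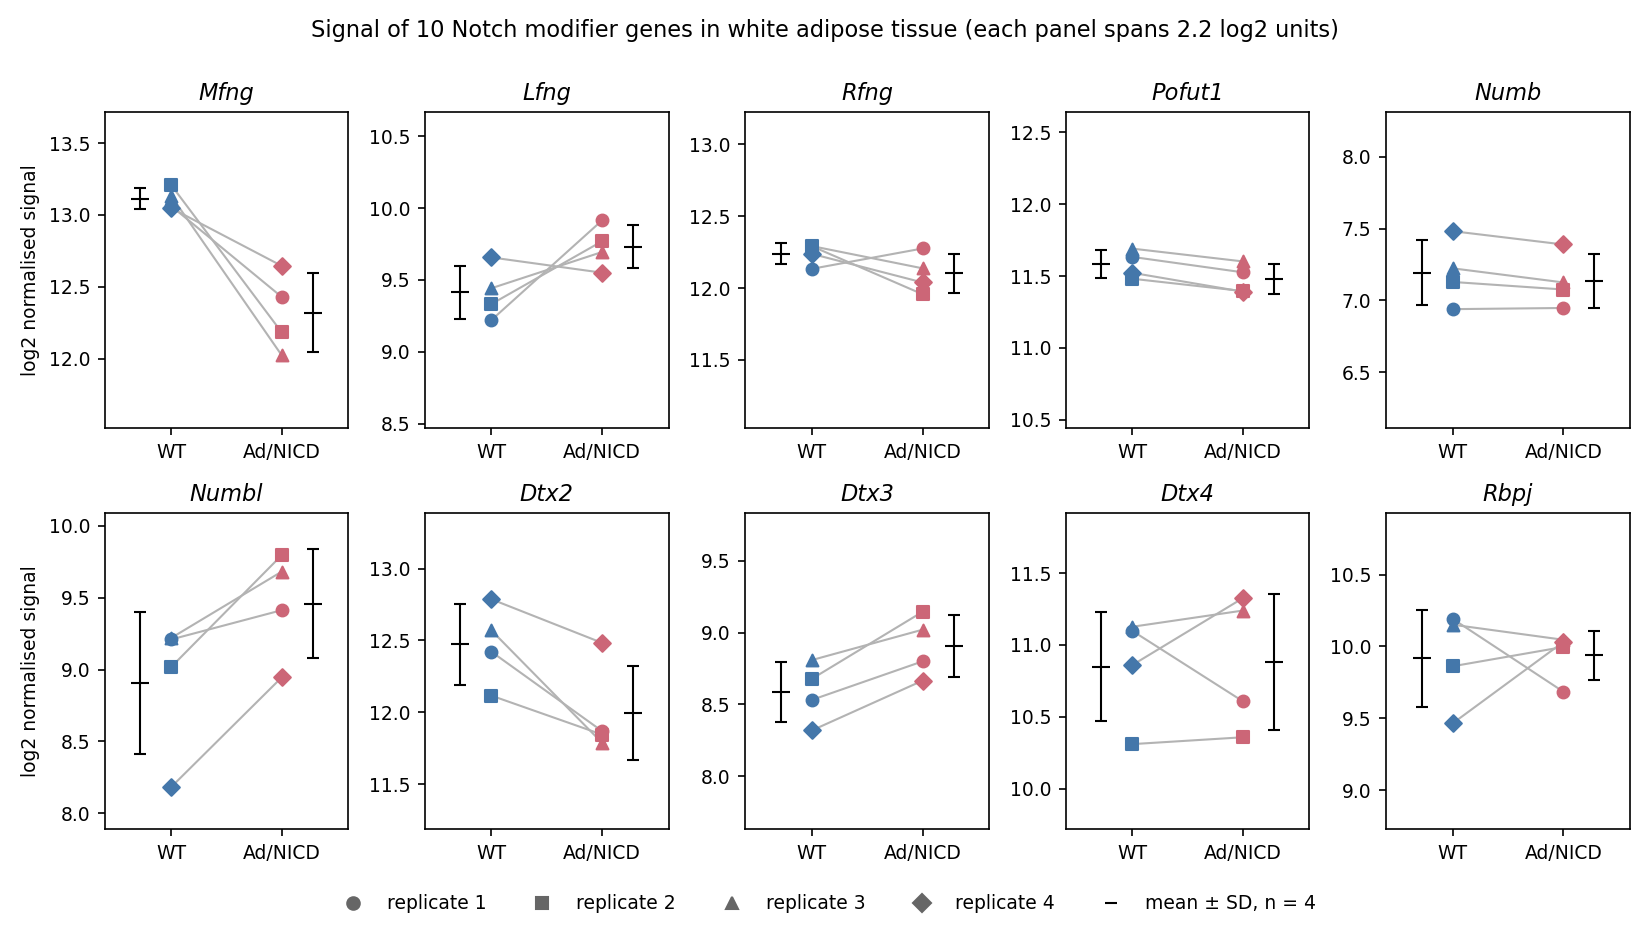
Log2 normalised signal of the 10 genes in each sample, with WT in blue and Ad/NICD in red, 1 marker shape per replicate, grey lines joining the samples of 1 array, and black bars for mean ± SD (n = 4). Every panel spans the same range of log2 units. Mfng is the gene whose groups do not overlap, with WT at 13.05 to 13.21 and Ad/NICD at 12.02 to 12.65.

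Mfng (gene 17305, chromosome 15:78755882-78773516 in GRCm38.p6), the manic fringe glycosyltransferase, was the member with the lowest p. Log2 signals were 13.06, 13.21, 13.13 and 13.05 in WT replicates 1 to 4. In Ad/NICD replicates 1 to 4 it was 12.43, 12.18, 12.02 and 12.65. All Ad/NICD samples lay below all WT samples, and the WT samples lay closer together (SD 0.074) than the Ad/NICD samples (SD 0.27). The ratios on the arrays of replicates 1 to 4 were -0.63, -1.03, -1.11 and -0.40. Their mean was -0.79 ± 0.14 (moderated SE, n = 4), or 1.73-fold lower, with a 95% interval of -1.14 to -0.45. The adjusted p was 0.13 for the ratios, 0.0222 with arrays as random blocks and 0.0353 without a block. The random-block call was lost without replicate 1 (adjusted p = 0.0856), 2 (0.171) or 3 (0.274), and kept without replicate 4 (0.0131).

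The other Mfng probe showed the same separation. It gave 12.89, 13.09, 12.98 and 12.93 in the WT samples and 12.32, 11.97, 11.75 and 12.33 in the Ad/NICD samples. Its mean log2 ratio was -0.88 ± 0.14, with an adjusted p of 0.13 over all kept probes, so both probes put Mfng lower on 4 of 4 arrays.

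Lfng, lunatic fringe, itself a Notch target in the segmentation clock of the embryo (gene 16848, chromosome 5:140607341-140615545), pointed the other way on 3 arrays. In log2 units it measured 9.22, 9.33, 9.44 and 9.66 in WT replicates 1 to 4 and 9.92, 9.77, 9.70 and 9.55 in Ad/NICD replicates 1 to 4. The groups overlapped through the replicate 4 pair, where the WT sample was the higher. The ratios were 0.69, 0.44, 0.25 and -0.11, with a mean of 0.32 ± 0.14 (95% interval -0.032 to 0.67; adjusted p = 0.363). The array with the highest Lfng ratio, that of replicate 1, was also the array with the highest Notch1 ratio, and the lowest ratios of both genes were on the array of replicate 4. The Notch target Heyl had ratios of 2.30, 3.21, 2.76 and 3.22 on the arrays of replicates 1 to 4. Its lowest ratio was on the array of replicate 1 and its highest on that of replicate 4. Whether the Notch1 probe reads the transgene was not tested. The summed T cell markers, of which 8 of 8 were measured, were 28584 to 55801 in WT and 35357 to 53010 in Ad/NICD, with array medians of 0.43, 0.45, -0.034 and -0.65, and their part in the Lfng ratios was not tested.

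Rfng, radical fringe (gene 19719, chromosome 11:120780745-120784251), had ratios nearer to 0. The probe read 12.13, 12.29, 12.29 and 12.24 in the WT samples and 12.28, 11.96, 12.14 and 12.04 in the Ad/NICD samples. The ranges overlapped, and the mean ratio was -0.14 ± 0.094 (95% interval -0.37 to 0.10; adjusted p = 0.546). Its other probe, dim at a mean log2 signal of 6.59, had -0.062 ± 0.060.

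The fringe genes were also compared with each other within arrays. The difference of log2 ratios, Mfng minus Lfng, took values of -1.33, -1.46, -1.36 and -0.30 from replicate 1 to replicate 4. Its mean was -1.11 ± 0.27. For all such differences, ± is the SE from the SD of the 4 values, without moderation. Mfng minus Rfng had a mean of -0.66 ± 0.16, and Lfng minus Rfng had 0.46 ± 0.14. Each difference had the same sign on 4 of 4 arrays, which gives the smallest p that a two-sided exact sign-flip permutation test over 4 arrays allows. After adjustment over the 7 pairs of related genes compared it was 0.146, so no pair of any family could pass the threshold.

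Pofut1 (gene 140484, chromosome 2:153241532-153271029) acts one step before the fringe enzymes. Its log2 signal was 11.63, 11.48, 11.69 and 11.52 in the WT samples and 11.53, 11.40, 11.60 and 11.39 in the Ad/NICD samples. Each Ad/NICD sample lay slightly below its WT partner while the groups overlapped, and the ratios spanned only -0.13 to -0.086. The mean was -0.10 ± 0.057 (95% interval -0.25 to 0.040; adjusted p = 0.449). The dimmer Pofut1 probe had 0.28 ± 0.32, with a ratio of 1.54 on the array of replicate 4 and -0.28 to -0.0033 on the others, so the probes of this gene disagree.

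To show the DNA beside these values, the 250 bases before the annotated start were read from RefSeq windows of GRCm38.p6, which held entries for 7 of the 10 genes. Mfng, Dtx3 and Dtx4 have no entry. Each window was searched on both strands for TGGGAA, the core of the sequence that RBPJ binds, whose reverse complement is TTCCCA. Of the 7 genes, 3 had a match, Lfng, Rbpj and Dtx2, where 24.1% of all 27025 genes with windows had one. The 3 windows are printed 5′ to 3′ on the plus strand, with the matches in capitals, as the members' windows that hold a match.
Lfng: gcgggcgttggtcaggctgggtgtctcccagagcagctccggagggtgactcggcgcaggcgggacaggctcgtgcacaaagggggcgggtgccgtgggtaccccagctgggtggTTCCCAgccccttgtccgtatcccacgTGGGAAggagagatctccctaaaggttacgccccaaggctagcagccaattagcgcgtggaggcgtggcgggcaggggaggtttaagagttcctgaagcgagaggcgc
Rbpj: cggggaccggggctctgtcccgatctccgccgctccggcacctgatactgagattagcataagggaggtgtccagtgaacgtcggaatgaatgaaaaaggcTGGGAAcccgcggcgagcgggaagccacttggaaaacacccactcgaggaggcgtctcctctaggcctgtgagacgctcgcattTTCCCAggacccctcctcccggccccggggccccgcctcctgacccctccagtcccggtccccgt
Dtx2: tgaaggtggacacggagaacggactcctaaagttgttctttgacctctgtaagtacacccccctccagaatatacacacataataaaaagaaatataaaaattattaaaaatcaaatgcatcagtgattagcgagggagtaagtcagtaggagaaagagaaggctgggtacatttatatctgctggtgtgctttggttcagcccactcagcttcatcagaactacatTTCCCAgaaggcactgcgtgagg
The Lfng window, chr5:140607091-140607340, has matches on opposite strands whose first bases lie 135 and 108 bases before the start. The Rbpj window, chr5:53590096-53590345, lies before a start inside the annotated gene and has matches on opposite strands at 149 and 65 bases. The latter match also lies in a second, overlapping Rbpj window, chr5:53590236-53590485, at 205 bases before that start. The Dtx2 window, chr5:135994550-135994799, has 1 match at 23 bases. The windows of Rfng, Pofut1, Numb and Numbl did not hold these letters. The log2 ratios of the 3 genes with a match were 0.32 for Lfng, 0.022 for Rbpj and -0.48 for Dtx2, of both signs.

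Numb (gene 18222, chromosome 12:83794034-83921942), the founding adaptor of its family, had ratios close to 0. Log2 signals were 6.94, 7.13, 7.22 and 7.48 in WT replicates 1 to 4 and 6.95, 7.08, 7.13 and 7.39 in Ad/NICD replicates 1 to 4. The samples of a pair lay close together while the pairs differed, and the mean ratio was -0.059 ± 0.059 (95% interval -0.21 to 0.091; adjusted p = 0.681). This probe is dim, so the offset of 50 added in the background correction can shrink its ratio, which was -0.067 with an offset of 10.

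Numbl, the Numb-like paralog (gene 18223, chromosome 7:27258438-27282150), was higher in the Ad/NICD sample of each pair. In log2 units it measured 9.21, 9.02, 9.22 and 8.18 in the WT samples and 9.41, 9.80, 9.68 and 8.95 in the Ad/NICD samples. The groups overlapped through the Ad/NICD sample of replicate 4, which lay below 3 of the WT samples and still above its own partner, the lowest sample of all. The ratios were 0.20, 0.78, 0.46 and 0.76, with a mean of 0.55 ± 0.12 (95% interval 0.26 to 0.85), a fold of 1.47. The adjusted p was 0.157 for the ratios, 0.27 with arrays as random blocks and 0.391 without a block.

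The paralogs of this family differed in the same sense on 4 of 4 arrays. Numbl minus Numb was 0.20, 0.83, 0.56 and 0.86, with a mean of 0.61 ± 0.15 (exact sign-flip permutation test, adjusted p = 0.146).

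**Figure D2:**
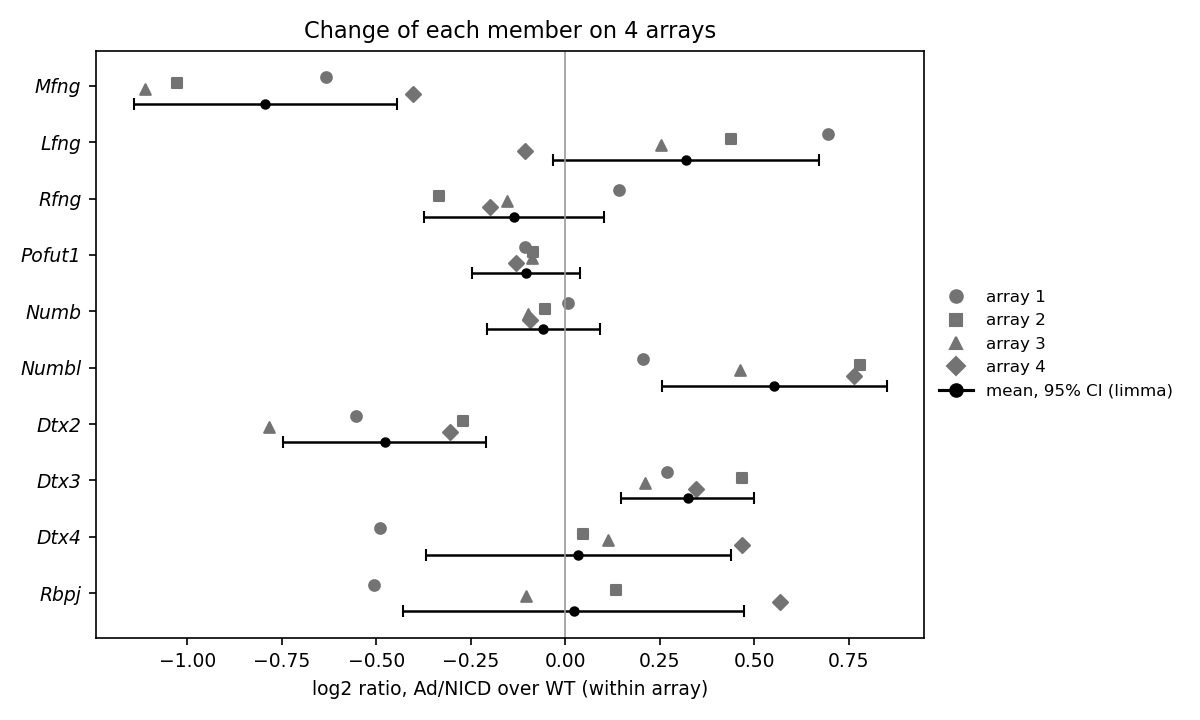
Log2 ratio of Ad/NICD over WT for each gene on the 4 arrays (grey, 1 shape per array) with the mean and its 95% interval from limma (black). The intervals of Mfng, Dtx2, Numbl and Dtx3 leave out 0 before adjustment, while those of the other 6 genes include it.

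Among the Deltex ligases, Dtx2 (gene 74198, chromosome 5:135994800-136032881) was lower in each Ad/NICD sample than in its WT partner. The probe read 12.42, 12.12, 12.57 and 12.79 in the WT samples and 11.87, 11.84, 11.79 and 12.48 in the Ad/NICD samples. The Ad/NICD sample of replicate 4 lay above 2 of the WT samples, so the groups overlapped. The ratios were -0.55, -0.27, -0.78 and -0.30, with a mean of -0.48 ± 0.11 (95% interval -0.75 to -0.21; adjusted p = 0.162), or 1.39-fold lower. The scanner's processed signals gave smaller values, -0.29 when median-centred and -0.32 with loess.

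Dtx3 (gene 80904, chromosome 10:127190373-127196498) was higher in each Ad/NICD sample than in its partner. Its log2 signal was 8.53, 8.68, 8.81 and 8.32 in the WT samples and 8.80, 9.15, 9.02 and 8.67 in the Ad/NICD samples. The groups overlapped, while the ratios of 0.27, 0.47, 0.21 and 0.35 lay close together, with a mean of 0.32 ± 0.070 (95% interval 0.15 to 0.50; adjusted p = 0.16). The sign turned under median-centring, where Dtx3 was 0.18 above the median of all gene names.

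Dtx4 (gene 207521, chromosome 19:12466329-12502179) had no common sign. Log2 signals were 11.10, 10.31, 11.13 and 10.86 in the WT samples and 10.61, 10.36, 11.24 and 11.33 in the Ad/NICD samples. The spread within a group (SD 0.38 in WT and 0.47 in Ad/NICD) was far larger than the mean ratio of 0.034 ± 0.16 (95% interval -0.37 to 0.44; adjusted p = 0.943). Without replicate 4 the mean was -0.11.

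Between the Deltex genes, Dtx3 minus Dtx2 was 0.82, 0.74, 0.99 and 0.65 on the 4 arrays, a mean of 0.80 ± 0.073 (exact sign-flip permutation test, adjusted p = 0.146). The 4 values of this pair had an SD of 0.15, against 0.55 for Mfng minus Lfng. Dtx4 minus Dtx2 had a mean of 0.51 ± 0.19 with the same adjusted p. Dtx3 minus Dtx4 had 0.29 ± 0.19 and was positive on 3 of 4 arrays (exact permutation p = 0.375, also after adjustment).

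Rbpj (gene 19664, chromosome 5:53555779-53657445), the partner of the overexpressed domain on DNA, was not shifted in a common direction. In log2 units it measured 10.19, 9.86, 10.15 and 9.46 in the WT samples and 9.69, 9.996, 10.05 and 10.03 in the Ad/NICD samples. The ratios of -0.51, 0.13, -0.11 and 0.57 were split evenly in sign, and the mean was 0.022 ± 0.18 (95% interval -0.43 to 0.47; adjusted p = 0.968). Without replicate 2 the mean was -0.015 and without replicate 4 it was -0.16. The other Rbpj probe had a mean of 0.10 ± 0.10, with 7.45, 7.16, 7.90 and 7.43 in the WT samples and 7.64, 7.54, 7.78 and 7.38 in the Ad/NICD samples, and it was again higher on 2 of 4 arrays. The probes differed in which arrays were higher.

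Levels of several members went together over the 8 samples. Pearson's r was 0.92 between Numbl and Dtx3, -0.84 between Numbl and Dtx2, and 0.76 between Mfng and Dtx2. These are descriptions over samples that share arrays and genotype, and in both groups the replicate 4 sample was the lowest for Numbl and Dtx3 and the highest for Dtx2.

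Compared over the 8 samples with 15623 other genes that have a RefSeq symbol, the levels most like those of Mfng were of Bscl2 (r = 0.99), Gng3 (0.987), Gstz1 (0.987) and Retn (0.987). Bscl2 encodes seipin, a lipid droplet assembly protein, and Retn encodes resistin, a hormone of mouse fat cells. Mean log2 ratios of these genes were -0.97, -0.49, -1.09 and -1.83. They were picked by levels over both groups together, so ratios of the same sign as Mfng follow from that choice. Retn is also in the adipocyte marker list below. For Numbl the closest levels were of Prrx2 (0.986), Mex3b (0.978), Cd209g (0.976) and Bicc1 (0.971). Prrx2 is a homeobox gene of mesenchymal cells. Its WT signals were 9.17, 8.50, 9.02 and 7.66 and its Ad/NICD signals 9.40, 9.91, 9.71 and 8.66, with replicate 4 again lowest in both groups. Here too the likeness to Numbl, in direction and in order of samples, follows from the choice of genes.

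Markers of fat cells were lower alongside Mfng. Of 14 adipocyte markers, 14 were measured and 11 had a ratio below 0, with 1 past the threshold in the ratio fit (0.0528% of all gene names) and 4 with arrays as random blocks (2.03%). Their summed signal was 279640 to 381811 in WT and 136364 to 253571 in Ad/NICD, without overlap. The median ratio of the list was -0.43, -1.17, -1.45 and -0.14 in pairs 1 to 4, beside the Mfng ratios of -0.63, -1.03, -1.11 and -0.40, and both were nearest to 0 on the array of replicate 4. Endothelial markers were also lower, with 14 of 14 below 0, 0 past the threshold (1 with arrays as random blocks), and a summed signal of 38961 to 43727 in WT and 28982 to 36734 in Ad/NICD. No marker of either list was below background in all samples, and the part of these cell types in the Mfng ratio was not tested.

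Skeletal muscle markers were below 0 for 10 of 10, with 0 past the threshold, a median ratio of -1.72 and array medians of -0.68, -2.06, -0.59 and -3.73. Their summed signal in the WT and Ad/NICD samples was 2617 and 1278 in pair 1, 10489 and 1887 in pair 2, 2575 and 1399 in pair 3, and 140223 and 8821 in pair 4. The Ad/NICD sample was the lower in each pair while the groups overlapped, and the part of muscle in the ratios of the members, Mfng and Dtx2 included, was not tested.

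Markers of adipose progenitors had 7 of 7 ratios above 0, with 0 past the threshold. Their summed signal was 43521 to 98550 in WT and 73315 to 107260 in Ad/NICD, and the lowest WT value was that of replicate 4. Their median ratio was -0.26, 0.51, -0.0093 and 1.07 on the 4 arrays, beside 0.20, 0.78, 0.46 and 0.76 for Numbl. The part of these cells in the Numbl and Dtx3 ratios was not tested. B cell markers, with 6 of 8 below 0 and 0 past the threshold, had summed signals of 17293 to 27968 in WT and 15005 to 19150 in Ad/NICD. Macrophage markers, with 7 of 10 above 0, had 28187 to 45528 in WT and 31562 to 47363 in Ad/NICD. The summed smooth muscle markers, with 5 of 7 below 0, were 12798 to 38268 in WT and 17984 to 30110 in Ad/NICD, erythroid markers, 4 of 4 below 0, 46247 to 63059 and 27057 to 55902, and nerve and glia markers, 5 of 6 above 0, 15406 to 22959 and 17298 to 30942. In the nerve and glia list 0 passed in the ratio fit. With arrays as random blocks 1 passed, S100b at 1.35 (limma, adjusted p = 0.0232), where 2.03% of all gene names did. Of the lists for epididymis and mesothelium, 0 of 5 and 1 of 4 markers were measured.

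**Figure D3:**
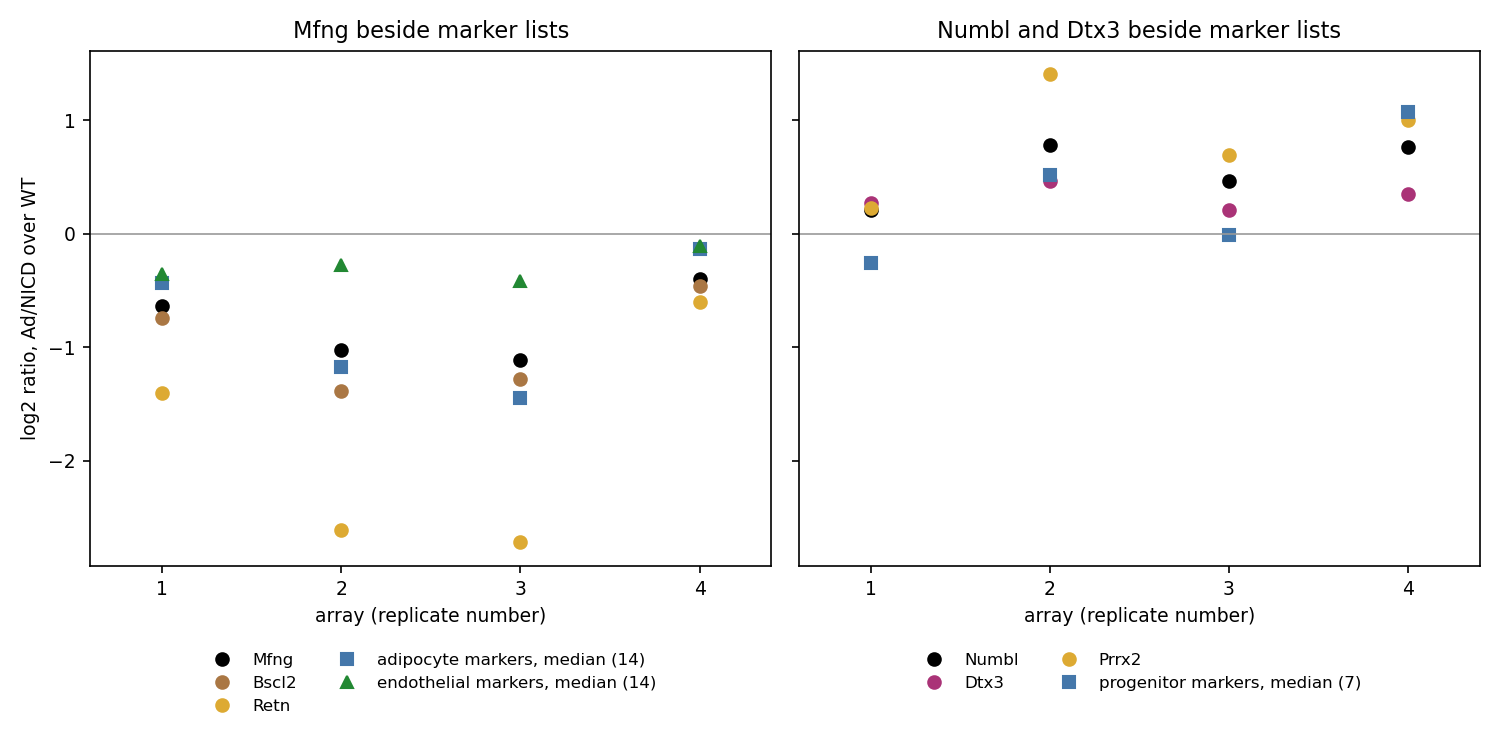
Log2 ratios of Ad/NICD over WT on each array, for Mfng with Bscl2, Retn and the median of the adipocyte and endothelial marker lists (left), and for Numbl and Dtx3 with Prrx2 and the median of the adipose progenitor list (right). Mfng lies at -1.03 and -1.11 on the arrays of replicates 2 and 3, where the adipocyte median is -1.17 and -1.45, and Numbl is above 0 on all 4 arrays. Bscl2, Retn and Prrx2 were picked for levels like those of Mfng or Numbl, so their shared direction follows from that choice.

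The rest of the pathway was read from lists by role. Of 13 other genes for the sugars of Notch, 6 were above 0 and 7 below, with a median ratio of -0.011, and 0 passed (limma). At an unadjusted p under 0.05, 2 were higher and 2 lower, where 6.28% of all gene names were higher and 9.08% lower. Gxylt2, a xylosyltransferase that extends O-glucose, had 0.43 ± 0.097 (adjusted p = 0.162). Fcsk, the fucose kinase, had -0.35 ± 0.091 (adjusted p = 0.195), and Fpgt, which makes GDP-fucose in the same salvage route, had -0.20 ± 0.069 (adjusted p = 0.277).

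Of 19 endocytic proteins and ubiquitin ligases that handle Notch, its ligands or Numb, 5 were above 0 and 14 below, with a median of -0.075, beside 48.4% above 0 over all gene names. Of these 0 passed, while 2 higher and 1 lower had an unadjusted p under 0.05, where 15.4% of all gene names had one. Lnx1, a ligase that acts on Numb, had -0.60 ± 0.21 (adjusted p = 0.273). Neurl1b, a Neuralized-type ligase of Notch ligands, had 0.44 ± 0.11 (adjusted p = 0.184), and Ap2a1, a subunit of the AP-2 adaptor that Numb binds, had 0.24 ± 0.066 (adjusted p = 0.21). Lnx1 was lower on 4 of 4 arrays, and its ratio of -1.37 on the array of replicate 4 lay far from the -0.19 to -0.54 of the others.

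Of the genes for cleavage of Notch, 8 of 9 were measured, 3 above 0 and 5 below, with a median of -0.058, and 0 passed. At an unadjusted p under 0.05, 2 were lower, where 9.08% of all gene names were. Psenen, a gamma-secretase subunit, had -0.27 ± 0.061 (adjusted p = 0.167), the protease Furin had -0.23 ± 0.071 (0.241) and Psen2, another gamma-secretase subunit, had -0.13 ± 0.067 (0.435). Of 22 genes listed as partners of RBPJ, 7 were above 0 and 15 below, with a median of -0.044, and 0 passed. At an unadjusted p under 0.05, 1 was lower, against the same 9.08% of all gene names. The corepressor Ncor1 had -0.23 ± 0.071 (adjusted p = 0.239) and the corepressor Cir1 -0.15 ± 0.088 (0.48). Kyat1, at -0.29 ± 0.13 (0.366), is an enzyme of kynurenine metabolism and stood in the list in error. Without it 7 of 21 were above 0 and 14 below, with a median of -0.042, a count added after seeing the data.

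Receptors and ligands had 5 of 11 above 0 and a median of -0.064, with 0 past the threshold. At an unadjusted p under 0.05, 2 were higher, where 6.28% of all gene names were. Notch3 had 0.73 ± 0.16 (adjusted p = 0.16, and 0.0502 with the array as a random block), Dlk1, a Notch-related protein of preadipocytes, 0.73 ± 0.18 (0.185) and Jag1 0.49 ± 0.19 (0.33). Of 7 Notch targets, 6 were above 0, the median was 0.25, and Heyl was the 1 gene past the threshold. Its ratio lay between 2.35 and 3.09 over 16 alternatives, and 8 of these lost the call: both fits on processed signals, the authors' deposited table, median-centring, no filter on dim probes, and the fits without replicate 1 (adjusted p = 0.105), 2 (0.182) or 3 (0.375). The median of the targets was 0.48 with an offset of 10 and 0.65 to 0.69 in processed signals and the authors' deposited table. Hes1 had 0.26 ± 0.091 (adjusted p = 0.286) and Hey2 0.25 ± 0.10 (0.344). The probes of these targets are dim, with mean WT log2 signals of 6.39 for Hes1 and 6.24 for Hey2, and Nrarp had 6.63. As for Numb, the offset added in the background correction can shrink such ratios. The small ratios of these genes therefore cannot show that they hardly changed. Hey1, brighter with a mean WT log2 signal of 9.63, had -0.20 ± 0.18 (limma, adjusted p = 0.655) and was lower on 3 of 4 arrays. The members thus lay between -0.79 and 0.55, while Heyl stood at 2.87. Among the 18 genes named from these lists for their low p, the groups did not overlap for Fcsk, Lnx1, Psenen, Furin and Ncor1, which were lower. They also did not overlap for Notch3, Dlk1, Jag1 and Heyl, which were higher. Over all gene names 5.68% were lower and 4.32% higher without overlap. The low p decided the choice of the 18 genes, so that count is a description.

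**Figure D4:**
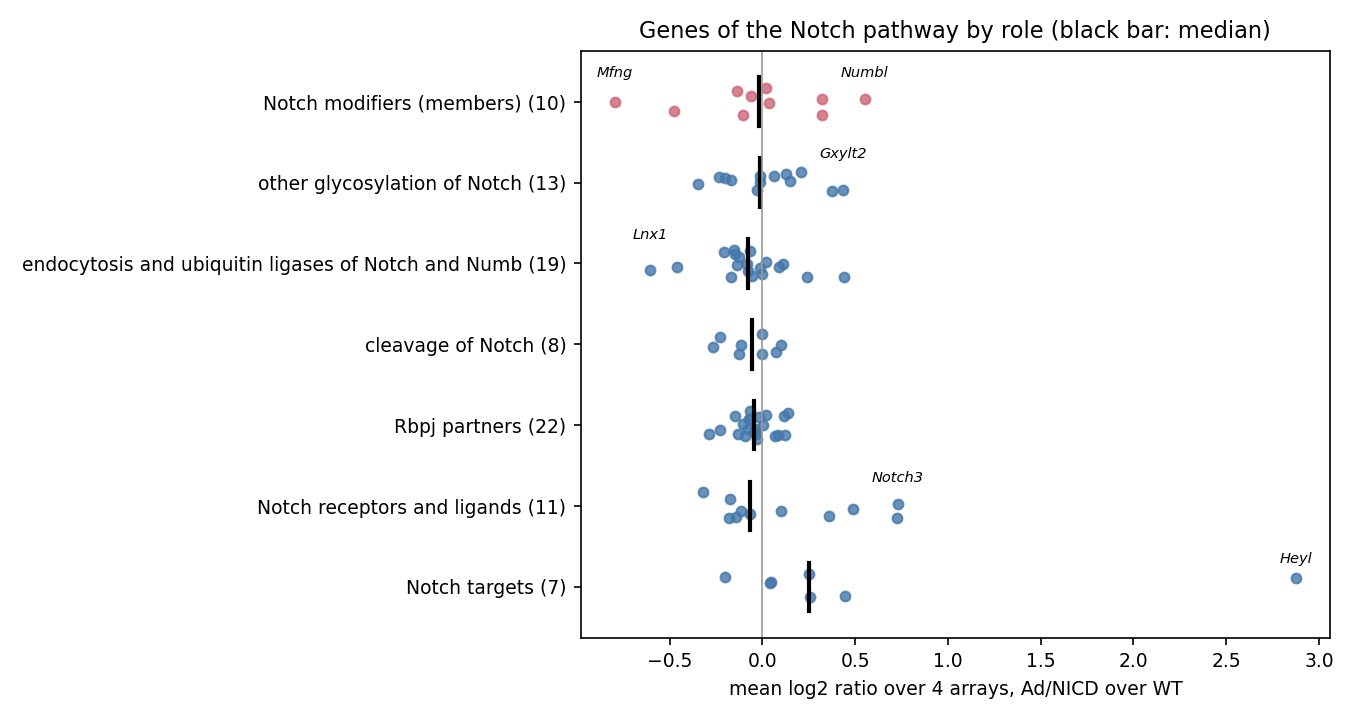
Mean log2 ratio of Ad/NICD over WT over 4 arrays for the 10 genes described here (red) and for the other Notch pathway genes by role (blue), with the median of each list as a black bar and the number of measured genes in brackets. All list medians except that of the targets lie within 0.1 log2 units of 0, and Heyl is the single point above 1.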

How the data were processed

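Intensity values of each spot were deposited as scanner tables, made with Agilent Feature Extraction 11.5 per the submitters' processing notes, with foreground, background and processed values. Tables of same-numbered WT and Ad/NICD samples were identical. The deposited log10 ratio equals red over green processed signal and entered no test. The deposited value table is on a log2 scale. Each column followed the log2 processed signal of 1 channel minus a constant (green for WT, red for Ad/NICD), with column medians from -3.84 to -3.52. Its further steps are not stated.

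Median signals were corrected with normexp (offset 50) and normalised by loess with controls at weight 0 (limma 3.58.1, R 4.3.3). A probe was kept when 1 of the channels was well above background on at least 3 arrays. Replicate 1's array lacks these flags. They were rebuilt at 6.11 MADs over the negative controls, and on the other arrays this matched 98.4% to 99.8% of scanner flags. RefSeq symbols (GRCm38.p6) were found for 28026 probes. Each gene name was taken from its brightest kept probe. Ratios were tested with limma (lmFit, eBayes), the array being the pair. Deviations of same-numbered samples from their group means correlated at 0.17, 0.16, 0.57 and 0.53 for replicates 1 to 4. The highest correlation with a differently numbered sample was 0.29, 0.14, 0.29 and -0.018, so replicate 1 was not closest to its own partner. Alternatives were other background, normalisation, filter and probe choices, separate channels, the deposited log2 table and leaving out each replicate. Code was tested on simulated data.

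Members, lists and tests were chosen with earlier results of these data known. Named genes were the 10 members, the genes of each pathway list past the threshold and the 3 with the lowest p, and the 4 genes closest in level to Mfng and to Numbl. Nrarp and Hey1 were named for their signal level. The direction of dye and genotype follows the value table.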

Additional observations from a re-analysis of the deposited data

Results flagged for a closer look

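Each group of 4 values was checked for a sample far from the other 3, over 34 groups, and 3 stood out, where chance gives about 1 in 20. Dtx2 in Ad/NICD replicate 4 had a log2 signal of 12.48, against 11.79 to 11.87 in the other Ad/NICD samples. Rbpj in Ad/NICD replicate 1 had 9.69, against 9.996 to 10.05 in the others. The dimmer Pofut1 probe had a ratio of 1.54 on the array of replicate 4, where its signal was 7.71 in WT and 9.25 in Ad/NICD, against 6.51 to 6.80 in the other 6 samples. The brighter Pofut1 probe had -0.13 on that array.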

How the results depend on the processing

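Of 160 values of the 10 genes under alternatives, 144 kept their direction and their side of the threshold, 14 turned in sign and 2 passed, the latter both Mfng. Alternatives that changed only the filter or the fit, separate channels included, returned each member's ratio unchanged, so these values could not turn in sign. The same holds for the probe choices in genes with a single probe. The count of 144 therefore overstates how many values were free to change. Mfng kept its value of -0.79 and passed in separate channels with no replicate block (1 member called lower, 101 gene names higher and 158 lower) and with the array as a random replicate block (1 member, 214 and 286). The block changed no other member's call. Over all settings Mfng lay between -1.20 and -0.69. Median-centring instead of loess turned Lfng to -0.20, Dtx3 to -0.16, Dtx4 to -0.48 and Rbpj to -0.51, and left 0 gene names higher and 0 lower (limma, 9570 at an unadjusted p under 0.05, against 3781). Relative to the median of all gene names there, Lfng (0.14) and Dtx3 (0.18) were above 0, while Dtx4 (-0.14) and Rbpj (-0.17) stayed turned. Numb, at -0.30 there, was 0.040 relative to that median, opposite in sign to the ratio fit. Pofut1 turned to 0.045 in processed signals median-centred, 0.019 with loess, 0.0028 in the authors' deposited table, 0.087 as a mean of probes and 0.28 on its other probe, an alternative chosen after seeing the data. Numb turned to 0.024 in median-centred processed signals and Rbpj to -0.0084 in the authors' deposited table. Leaving out each replicate gave -0.11 to 0.21 for Dtx4 and -0.16 to 0.20 for Rbpj, and counts of 0 to 9 gene names higher and 0 to 34 lower, with 34 lower without replicate 4 and 0 called without replicate 1, 2 or 3 (3525, 2493 and 1962 at an unadjusted p under 0.05). The counts were 3 higher and 2 lower in median-centred processed signals and in the authors' deposited table, and 3 and 1 in processed signals with loess. They were 0 and 0 with no filter on dim probes (5094 at an unadjusted p under 0.05). With an offset of 10 there were 10 lower, as there were among probes well above background everywhere. Of 90 list medians 12 moved beyond the spread between arrays. The 63 alternative values of paralog differences kept their sign. Apart from the fewer samples of the left-out fits, the cause of these changes was not tested. The number of arrays and the dimness of the Numb probe limit the precision.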
